A study of Mus musculus with 4 samples.

Results

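Tac1, Tac2, Tacr1 and Tacr3, the 4 genes of the tachykinin peptides and their receptors that were chosen by name from 32285 counted genes, were followed through 14 cell types and 134 neuronal clusters of a piece of mouse hindbrain that contained the area postrema and the nucleus of the solitary tract. Tachykinins are neuropeptides that share a short ending at their C terminus, which carries the receptor binding, and are cut from larger precursors in the secretory pathway. Tac1 encodes substance P and neurokinin A, and Tac2 encodes neurokinin B. Tacr1 encodes the NK1 receptor, which prefers substance P, and Tacr3 the NK3 receptor, which prefers neurokinin B. Both receptors couple to Gq proteins. In the dorsal vagal complex, substance P and the NK1 receptor are known for their part in emesis and in visceral and cardiorespiratory reflexes.

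Single nuclei of this hindbrain tissue were profiled by droplet 3′ RNA sequencing in 4 libraries, 2 of control mice and 2 of AgRP-Gq;POMC-Gi mice. AgRP-Gq;POMC-Gi mice carried AgRP-IRES-Cre with a Cre-dependent hM3DGq allele and POMC-Dre with a Dre-dependent hM4DGi allele, so that the activating receptor was expressed in AgRP neurons and the inhibitory receptor in POMC neurons, both from the CAG promoter. AgRP neurons lie in the hypothalamus, outside the tissue taken. The controls, labelled WT, were littermates that carried both receptor alleles without Cre or Dre, so neither receptor was expressed. All mice, males and females of 12 to 20 weeks on the C57BL/6 background, received clozapine N-oxide (CNO) at 3 mg/kg, and the tissue was taken 1 h later without access to food. Tissue of 2 mice per group was pooled within a condition, and which animals entered which library is not given in the sources used here, so the spread between libraries is the only error available.

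The segments of the 2 precursor genes that encode the 3 peptides are shown because they set the ligands apart and show what a 3′ count cannot resolve. Each is read on the plus strand of GRCm38 and holds the codons of the last 10 residues of the peptide, with the shared 5-residue tachykinin ending in capitals. Substance P lies at chr6:7556735-7556764 in coding exon sequence of Tac1, neurokinin A at chr6:7559101-7559130 in the same gene, and neurokinin B at chr10:127729116-127729145 in coding exon sequence of Tac2.
Substance P: cccaagcctcagcagTTCTTTGGATTAATG
Neurokinin A: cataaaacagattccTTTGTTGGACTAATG
Neurokinin B: gacatgcacgacttcTTTGTGGGACTTATG
All 3 are followed by a glycine codon, the residue used to amidate the peptide. The endings of neurokinin A and neurokinin B, from different genes, had 13 of 15 bases in common, against 12 of 15 for the pair of peptides from Tac1 and 10 of 15 for substance P and neurokinin B. The substance P segment was part of 3 of the 4 annotated coding transcripts of Tac1 and the neurokinin A segment of 2, so Tac1 counts do not tell how much message could yield neurokinin A. The neurokinin B segment was in both coding transcripts of Tac2. Tac1 spans chr6:7554879-7565834, Tac2 chr10:127724478-127731768, Tacr1 chr6:82402334-82560104 and Tacr3 chr3:134829007-134934579, all on the plus strand, and no annotated gene overlapped any of the 4 on either strand.

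The 4 libraries kept 9723 to 10051 nuclei each and 48904976 to 53089402 unique molecular identifiers (UMIs, 1 per captured RNA molecule), 39461 nuclei in all. Of these, 12539 were neurons in the deposited annotation, 2470 to 3696 per library, with median depths of 8252 to 9623.5 UMIs. Both measures split by group without overlap, given here for replicate 1, then replicate 2. AgRP-Gq;POMC-Gi libraries held a larger neuronal share, 38.0% and 36.5% of nuclei, than controls at 25.4% and 27.2%. Their neurons were shallower by median, at 8252 and 8514 UMIs, while controls had 9623.5 and 8727.5. How far these gaps bear on the summed group comparisons was not tested. The neuronal markers Rbfox3, Snap25 and Syt1 had a UMI in 75.5%, 96.3% and 90.1% of neurons, against 6.37%, 23.0% and 42.7% in the next highest type. AgRP-Gq;POMC-Gi replicate 2 stood apart in sex-linked genes, with Xist at 22.4 CPM (a gene's UMIs divided by all UMIs of the nuclei summed, times 1e+06) against 471 to 729 CPM in the other 3 libraries, and Uty at 175 against 57.7 to 93.1 CPM. The 4 libraries shared 168 cell barcodes, 0.428% of 39293 distinct ones. Values in series of 4 are for control replicates 1 and 2 and AgRP-Gq;POMC-Gi replicates 1 and 2, in that order, and levels are mean ± SD over the 4 libraries.

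Both receptor genes were largely neuronal at this depth, while Tac1 reads were spread over most cell types. Tacr1 reached 18.9 ± 0.956 CPM in neurons (n = 4) and 0.781 ± 0.158 CPM in oligodendrocytes, a glial type taken here to lack these transcripts and so to show the level of free RNA. Tacr3 reached 10.8 ± 1.61 CPM in neurons against 0.326 ± 0.211 CPM in oligodendrocytes. These are 24.1-fold and 33.1-fold differences, and in every library the neurons were above the oligodendrocytes. Tac1 was at 17.9 ± 1.04 CPM in neurons and 11.2 ± 2.19 CPM in oligodendrocytes, 1.60-fold apart, with a UMI in 8.74% of neurons (median depth 8704 UMIs) and 2.78% of oligodendrocytes (2460 UMIs). After every nucleus was thinned to 800 UMIs the Tac1 shares were 1.62% and 0.975%. Counted per nucleus the gap was wider, with 2243 Tac1 UMIs in 12539 neurons and 496 in 16816 oligodendrocytes. Whether the CPM of the shallower oligodendrocytes stands for free RNA in the deeper neurons was not tested, and it may overstate it. In that case the background rule used below is too strict for neurons. Tac2 was at 1.41 ± 1.12 CPM in neurons and 0.643 ± 0.424 CPM in oligodendrocytes.

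**Figure D1:**
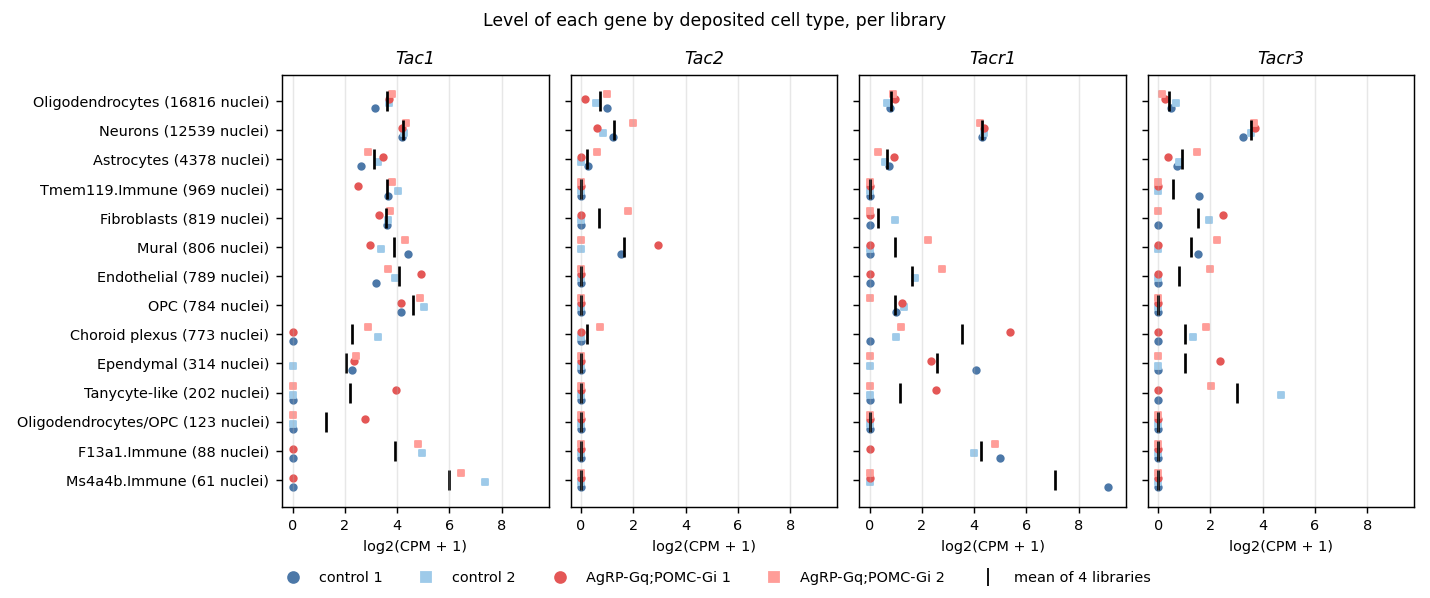
CPM of each gene, as log2(CPM + 1), in the 14 deposited cell types; points are the 4 libraries and the bar is their mean. Tacr1 and Tacr3 stand high in neurons in all 4 libraries, Tac1 lies close to the oligodendrocyte level in many types, and types with few nuclei scatter widely.

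Outside neurons, Tac1 in oligodendrocyte precursor cells had 16.5, 31.3, 16.5 and 28.6 CPM, above the oligodendrocytes of the same library in 4 of 4 libraries and 2.08-fold higher on average, with a UMI in 64 of 784 nuclei. Small types gave uneven values. In the 61 nuclei named Ms4a4b.Immune, Tac1 was at 0 in 2 libraries and at 165 and 86.2 CPM in the others, and all 10 of their Tacr1 UMIs came from 1 nucleus. In the same way the choroid plexus mean for Tacr1 of 10.5 ± 19.5 CPM rested on AgRP-Gq;POMC-Gi replicate 1. In the 88 nuclei named F13a1.Immune, Tacr1 was near the neuronal level, at 30.8, 14.8, 0 and 27.0 CPM, but from 3 UMIs. Tacr3 in the 202 tanycyte-like nuclei had 7.01 ± 12.1 CPM, also from 3 UMIs. A cell type or cluster is called above background where its mean was at least 4 times that of oligodendrocytes and its CPM exceeded theirs in all 4 libraries. By this rule neurons as a whole were above background for Tacr1 and Tacr3 but not for Tac1 or Tac2, and no non-neuronal type was above background for any of the 4 genes. Tac4, the gene of the hemokinin and endokinin tachykinins, was lower in CPM in neurons than in oligodendrocytes (0.992 ± 0.139 and 1.71 ± 0.392 CPM). A Tac4 UMI was found in 0.949% of neurons and 0.446% of oligodendrocytes, and in 0.0798% and 0.107% after thinning to 800 UMIs. Tacr2, the NK2 receptor gene, had 5 UMIs in all neurons.

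Detection per nucleus was low. A UMI was found in 1096 neurons for Tac1 (8.74%), 94 for Tac2 (0.750%), 1423 for Tacr1 (11.3%) and 796 for Tacr3 (6.35%). Among these, 58.1%, 70.2%, 63.3% and 61.6% held only 1 UMI, so a nucleus without one cannot be read as lacking the transcript. The highest counts in a nucleus were 16, 10, 12 and 16 UMIs.

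Across the 134 clusters the 4 genes differed in how widely they were found. Tac1 was above background in 14 clusters, which held 8.86% of neurons and 50.9% of neuronal Tac1 UMIs. Tacr1 was above background in 50 clusters with 46.4% of neurons and 81.8% of its UMIs, and Tacr3 in 35 clusters with 30.0% of neurons and 70.9% of its UMIs. Tac2 met the rule in 1 cluster. The bar was not the same for the 4 genes, since it follows the oligodendrocyte level: 44.8 CPM for Tac1, 2.57 for Tac2, 3.13 for Tacr1 and 1.30 for Tacr3. On shares of nuclei thinned to 2000 UMIs the counts were 12, 0, 17 and 3, so the breadth of the receptor genes depended on the measure. No UMI was seen in 10 clusters for Tac1, 91 for Tac2, 16 for Tacr1 and 28 for Tacr3.

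**Figure D2:**
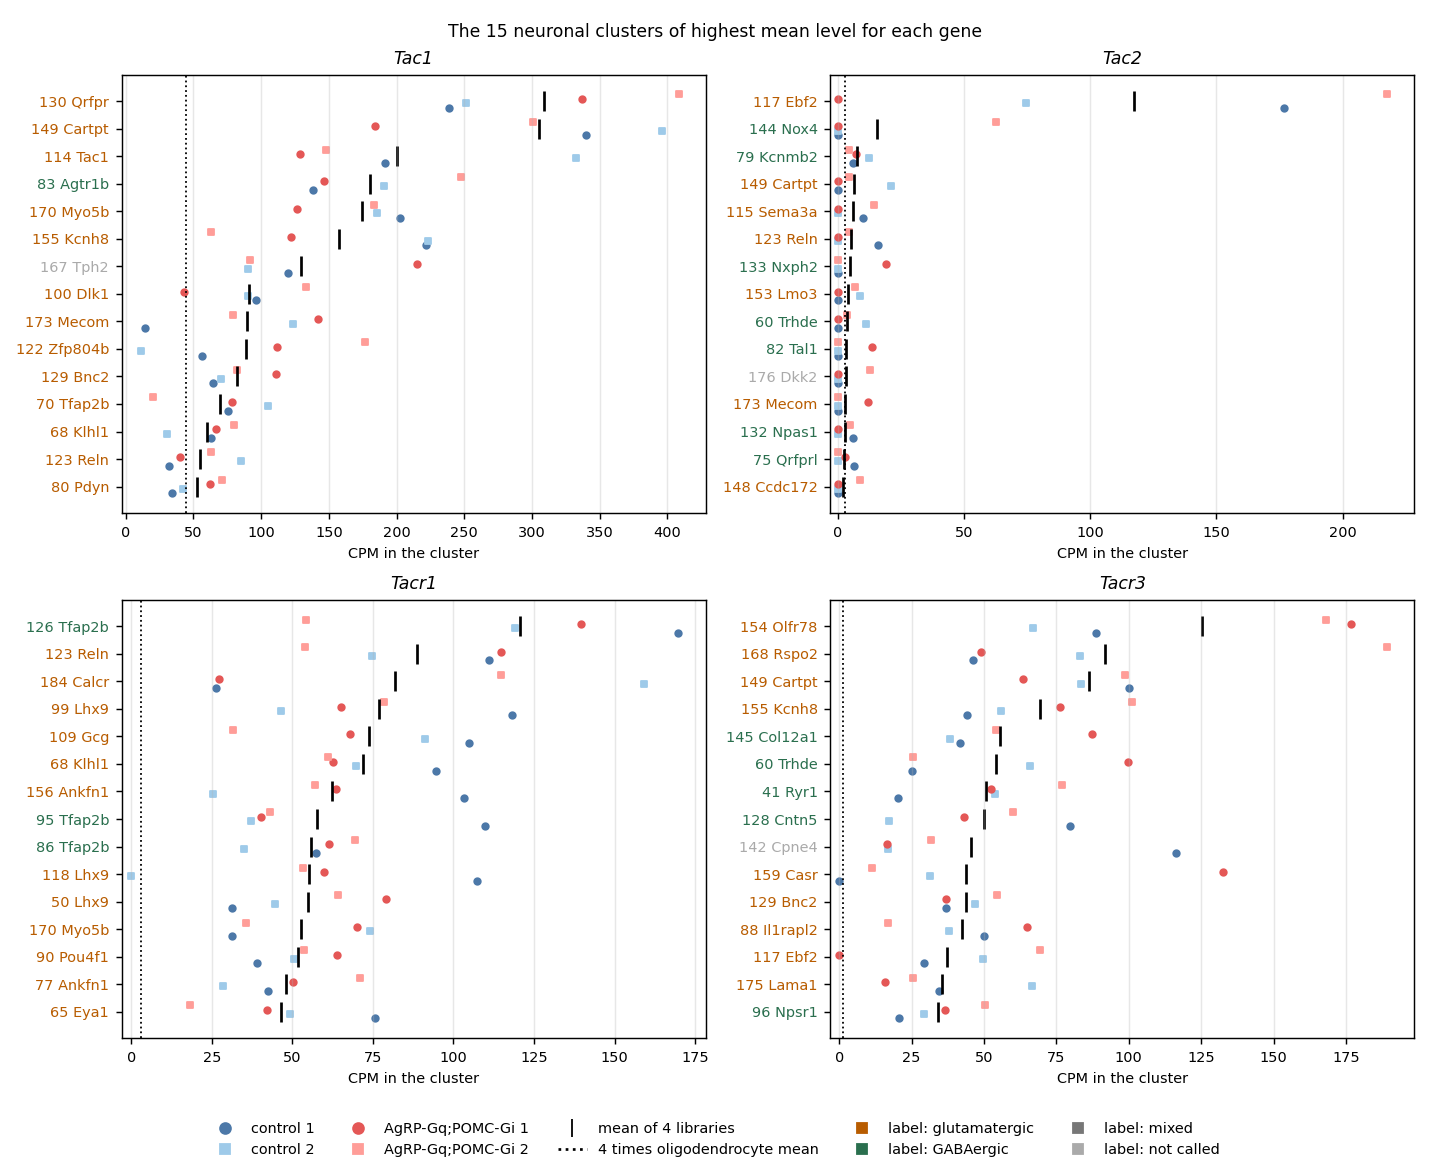
CPM of each gene in its 15 neuronal clusters of highest mean; points are the 4 libraries, the bar is their mean, the dotted line is 4 times the oligodendrocyte mean, and labels give the cluster number and its first marker gene, coloured by transmitter class. Clusters 130 and 149 lead for Tac1, cluster 117 leads for Tac2 with 1 library at 0, and the receptor genes decline gradually from cluster to cluster.

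Tac1 was highest in cluster 130 (Qrfpr/Tac1), with 239, 252, 337 and 408 CPM and a UMI in 41 of 66 nuclei. Cluster 149 (Cartpt/Arhgap28) followed with 340, 396, 184 and 301 CPM and a UMI in 35 of 55 nuclei. Every library of both clusters was far above the oligodendrocytes, and their means (309 ± 79.4 and 305 ± 89.8 CPM) did not differ beyond their spread. Cluster 114 (Tac1/Tafa2) came next with 191, 332, 129 and 148 CPM, and the step from cluster 149 down to its mean of 200 ± 91.8 CPM was larger than either SD. It was the only such step between neighbours among the 20 highest clusters.

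Cluster 83 (Agtr1b/Cntnap5b) had 138, 191, 147 and 247 CPM of Tac1 and cluster 170 (Myo5b/Otof) had 202, 186, 126 and 183 CPM. Of the 5 leading clusters, 4 were glutamatergic (130, 149, 114 and 170), with Slc17a6, the vesicular glutamate transporter of the hindbrain, at means of 102 to 166 CPM, against 7.11 CPM in cluster 83. The peptide genes beside Tac1 varied. Cartpt stood at 349 ± 120 CPM in cluster 149, against 15.9 to 62.4 CPM in the other 4 clusters, and Gal, the galanin gene, at 113 ± 35.3 CPM, against 2.96 to 5.33 CPM. Penk, the enkephalin precursor gene, stood at 207 ± 54.9 CPM in cluster 170, against 13.9 to 29.1 CPM in the other 4. The transcription factor gene Lmx1b was at 96.8 ± 39.9 CPM in cluster 130 and at 44.9 to 58.2 CPM in the other glutamatergic clusters. These levels are a description, with no test. Cluster 83 was the only GABAergic cluster above background for Tac1. Tac1 also stood at 120, 90.1, 215 and 91.4 CPM in the serotonergic cluster 167 (Tph2/Slc6a4), in 22 of 43 nuclei.

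Tac2 was highest in cluster 117 (Ebf2/Nmu), which held 51.1% of its neuronal UMIs, or 31.6% with AgRP-Gq;POMC-Gi replicate 2 left out. The levels there were 177, 74.3, 0 and 218 CPM, from 18, 6, 0 and 69 UMIs in 15, 10, 14 and 42 nuclei. No Tac2 UMI was thus seen in the 14 nuclei of AgRP-Gq;POMC-Gi replicate 1 in this cluster, where 20 of all 81 nuclei had one, and this kept the cluster from meeting the background rule, while the other 3 libraries were all high. Cluster 117 also had Sst, the somatostatin gene, at 204 ± 84.9 CPM and the transcription factor Ebf2 at 1050 ± 243 CPM. Its mean of 117 ± 98.6 CPM was above that of the next cluster by more than either SD. That next cluster, 144 (Nox4/Kcnmb2), had 7 UMIs, all from 2 nuclei of AgRP-Gq;POMC-Gi replicate 2.

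The cluster that did meet the rule for Tac2 was 79 (Kcnmb2/Slc6a5), classed as GABAergic, with the glycine transporter gene Slc6a5 at 245 ± 30.9 CPM. Its Tac2 values were low but present in all libraries, at 5.78, 12.1, 7.14 and 4.49 CPM, from 10 UMIs in 9 of 115 nuclei. Clusters 149 and 115 (Sema3a/Cdh9) had means of 6.33 ± 9.91 and 6.07 ± 7.26 CPM from 2 and 3 UMIs.

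Tacr1 was highest in the GABAergic cluster 126 (Tfap2b/Slc39a8), at 170, 119, 140 and 54.3 CPM, with a UMI in 33 of 72 nuclei. Cluster 123 (Reln/Pou4f1) had 111, 74.6, 115 and 54.0 CPM, beside Chat, the acetylcholine synthesis gene, at 54.4 ± 11.3 CPM. AgRP-Gq;POMC-Gi replicate 2 was the lowest library in both. Cluster 109 (Gcg/Reln), which holds the preproglucagon gene Gcg at the highest level of all clusters (87.2 ± 64.6 CPM), had Tacr1 at 105, 91.2, 67.8 and 31.6 CPM, with a UMI in 39 of 89 nuclei. Clusters 184 (Calcr/Shox2) and 99 (led by Lhx9) had means of 81.8 ± 66.2 and 77.0 ± 30.4 CPM, that of cluster 184 from 15 UMIs in 7 of 24 nuclei. No neighbours among the 20 highest clusters differed beyond their spread, so Tacr1 had no leading cluster in the sense that Tac2 had.

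Tacr3 was highest in cluster 154 (Olfr78/Calcr), at 88.8, 66.8, 177 and 168 CPM, with a UMI in 30 of 53 nuclei. The control values rested on 3 and 2 UMIs in 3 and 4 nuclei, too few for this cluster to be compared between groups. It also held Gal at 200 ± 92.1 CPM. Cluster 168 (Rspo2/Ntng1) followed at 46.3, 83.2, 48.8 and 189 CPM. The Tac1-rich cluster 149 came next, with 100, 83.4, 63.5 and 98.8 CPM of Tacr3 in 25 of 55 nuclei, and cluster 155 (Kcnh8/Arhgap6), which had 157 ± 78.7 CPM of Tac1, followed at 69.3 ± 24.9 CPM. The GABAergic cluster 145 (Col12a1/Tnc) had 55.4 ± 22.3 CPM. As for Tacr1, no neighbours among the 20 highest clusters differed beyond their spread.

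The clusters were classed by transmitter as glutamatergic (Slc17a6 at least 4 times Slc32a1, the vesicular GABA transporter gene), GABAergic (the reverse) or neither. Slc6a5 had no part in this rule, so the class called GABAergic is not told apart from glycinergic clusters. Tac1 was above background in 12 of 69 glutamatergic clusters (17.4%) and 1 of 46 GABAergic ones (2.17%). Tacr1 was above background in 32 of 69 (46.4%) and 15 of 46 (32.6%), and Tacr3 in 18 of 69 (26.1%) and 14 of 46 (30.4%). Summed over each class, Tac1 had 25.7 ± 1.47 CPM in glutamatergic and 10.2 ± 1.26 CPM in GABAergic neurons, and Tacr1 had 25.9 ± 1.75 and 12.5 ± 3.24 CPM. With a 10-fold rule, which left 64 glutamatergic and 25 GABAergic clusters, the shares were 15.6% and 0% for Tac1, 46.9% and 24% for Tacr1, and 26.6% and 12% for Tacr3, so the order of the classes for Tacr3 depended on the rule. In the summed classes every library was higher in glutamatergic neurons for Tac1 and Tacr1. Tacr3 had 10.7 ± 1.96 and 11.5 ± 2.25 CPM, which overlapped. Since clusters were built from expression, these contrasts are descriptions without a test.

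**Figure D3:**
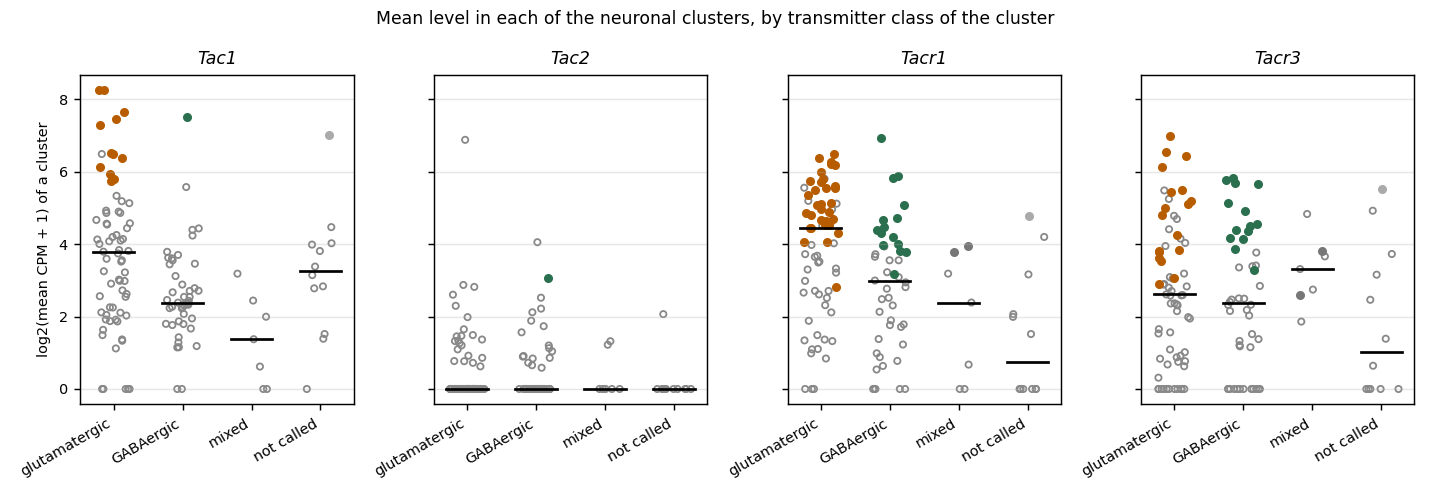
Mean level of each gene, as log2(mean CPM + 1), in the 134 neuronal clusters, split by transmitter class; each point is a cluster, filled points are above background and the bar is the class median. Filled Tac1 points lie almost all in the glutamatergic class, whereas filled Tacr3 points are found in both main classes.

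Ligand and receptor genes met in some clusters. Of the 14 Tac1 clusters, 7 were also above background for Tacr1 (50% of the Tac1 clusters, 14% of the Tacr1 clusters) and 5 for Tacr3 (35.7% and 14.3%). The receptor genes shared 17 clusters, 34.0% of those of Tacr1 and 48.6% of those of Tacr3. Over all 134 clusters, Tacr1 was above background in 50 and Tacr3 in 35. Whether the overlaps exceed these shares was not tested, and nothing is read from them about the genes together. Cluster 80 (Pdyn/Cpa6), which is led by the dynorphin precursor gene, was the only one above background for 3 of the genes, with Tac1 at 52.4 ± 17.0, Tacr1 at 44.0 ± 13.4 and Tacr3 at 12.8 ± 9.90 CPM. In 63 of the 134 clusters none of the 4 genes was above background. Over the 134 clusters, which share their libraries, the pairs of genes had Pearson r of log2(mean CPM + 1) from -0.04 (Tac2 and Tacr1) to 0.28 (Tac1 and Tacr1).

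Within nuclei thinned to 2000 UMIs, Tacr3 was detected in 7 of 35 neurons with a Tac2 UMI (20.0%) and in 1.88% of the neurons without one. The share was higher beside Tac2 in 4 of 4 libraries, at 15.8% to 33.3%. The libraries held only 6, 5, 5 and 19 such Tac2 neurons, so each of these shares rests on very few nuclei. Before thinning, 20 neurons held both transcripts. They lay in 9 clusters, with 11 in cluster 117 and 13 in AgRP-Gq;POMC-Gi replicate 2. In the same thinned nuclei, Sst was detected in 15 of the 35 Tac2 neurons (42.9%) against 6.05% of the others. Neurons with a Tac1 UMI held Tacr3 in 18 of 443 (4.06%) against 1.85%, higher in 4 of 4 libraries, and Tacr1 in 22 of 443 (4.97%) against 3.21%, higher in 3 of 4. Tacr1 and Tacr3 were found together in 5 of 405 Tacr1 neurons (1.23%), against 1.96% of neurons without Tacr1. Nuclei of a library are not replicates, so these shares carry no test.

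Among 13054 genes with at least 500 neuronal UMIs, those whose cluster means followed Tac1 most closely over the 134 clusters were Lmx1b (r = 0.48), Trim24, Tlx3, C130021I20Rik and Srsf7 (r = 0.44). Lmx1b and Tlx3 are transcription factors of dorsal hindbrain neurons. For Tacr1 the order was Gm34006 (r = 0.53), Map2k4, Kcnk9, a two-pore potassium channel gene, Fndc1 and Ano5 (r = 0.50). For Tacr3 4 of the 5 were Cabcoco1 (r = 0.48), Syt16, Gm29587 and Mtss1 (r = 0.45). For Tac2 the likeness was weak, from Pros1 (r = 0.35) through Fam184a, Tsr1 and Ndfip1 to Dcaf13 (r = 0.28).

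The study singled out clusters for immediate early gene ranks, and named neighbours of these holding Th, the tyrosine hydroxylase gene. At most 1 of the 4 genes was above background in each. This was so for most clusters, as 63 of the 134 had none above background and 43 had 1. Cluster 109 (Gcg/Reln) was above background for Tacr1 only, as was cluster 76 (led by Dbh), at 37.1, 27.5, 13.6 and 36.4 CPM. The study proposes that cluster 76 is catecholaminergic, though with little Th. Cluster 82 (Tal1/Nell1) was above background for Tacr3 only, at 6.85, 5.24, 6.69 and 16.3 CPM. Cluster 63 (Ebf2/Th) had 0.979 to 1.96 CPM on average for each of the 4 genes, and none was above background there. Cluster 97 (Gfral/Sctr) had Tacr3 at 88.6, 14.6, 3.05 and 0 CPM, from 9 UMIs in 3 of 101 nuclei. Of these UMIs, 6 came from the 7 nuclei of control replicate 1. Cluster 146 (Rxfp1/Ebf2) had Tacr3 at 20.3 ± 15.1 CPM, from 9 UMIs in 6 of 58 nuclei, with control replicate 2 at 0.

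The comparison of AgRP-Gq;POMC-Gi with control mice asks whether the transcripts differed in the hindbrain 1 h after the combined manipulation of AgRP and POMC neurons. In neurons summed per library none of the 3 genes that could be tested was called. Tac1 had 17.1, 18.0, 17.1 and 19.3 CPM and a log2 fold change of 0.11 (SE 0.0964, edgeR adjusted p = 0.837). Tacr1 had 18.6, 19.7, 19.5 and 17.6 CPM and a log2 fold change of 0.02 (SE 0.116, adjusted p = 0.975). The groups overlapped for both genes. Tacr3 had 8.53, 10.8, 12.1 and 11.7 CPM, so that the groups did not overlap and the controls were lower. The log2 fold change was 0.37 (SE 0.150, 95% interval 0.02 to 0.72, unadjusted p = 0.0418, adjusted p = 0.817). With each cluster given equal weight the Tacr3 log2 ratio was 0.14. With a library left out in turn it lay between 0.21 (control replicate 1 out, adjusted p = 1.00) and 0.55 (control replicate 2 out, adjusted p = 1.00), with 0.45 when AgRP-Gq;POMC-Gi replicate 2 was out (adjusted p = 0.0922).

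Of the 16458 genes tested in neurons, 0.00608% were called at an adjusted p under 0.05 (1 gene, Hsd11b2) and 5.72% had an unadjusted p under 0.05. Tac2 had a UMI in fewer than 1% of neurons and was left out of this test. Its 1.34, 0.802, 0.506 and 3.00 CPM placed the AgRP-Gq;POMC-Gi libraries on either side of the controls. Summed counts cannot tell a larger share of expressing neurons from more RNA in each. In nuclei thinned to 2000 UMIs, the mean share with a UMI was 3.78% in controls and 3.44% in AgRP-Gq;POMC-Gi for Tac1, 0.216% and 0.332% for Tac2, 3.22% and 3.31% for Tacr1, and 1.81% and 2.02% for Tacr3. The Tac2 shares per library were 0.247%, 0.185%, 0.137% and 0.527%, so its higher mean rested on AgRP-Gq;POMC-Gi replicate 2. The two-sided exact permutation test over 2 against 2 libraries gave p = 0.333 for Tac1 and Tacr3, the smallest it can give, and 1 for the others.

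**Figure D4:**
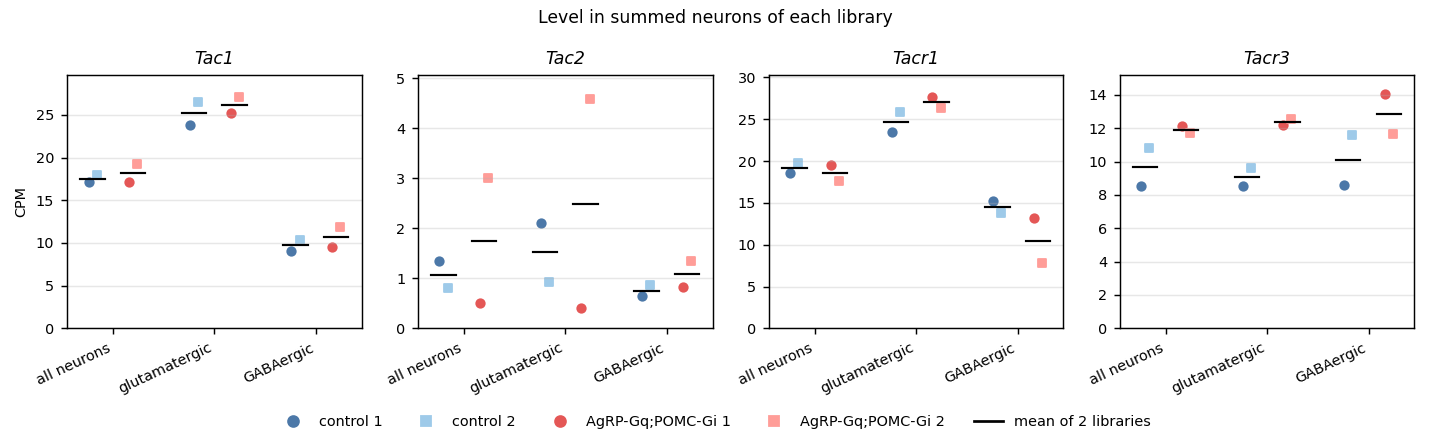
CPM of each gene in summed neurons and in summed glutamatergic and GABAergic clusters; points are libraries and bars are the means of the 2 libraries of a group. For Tacr3 the control points lie below the others in all neurons and in the glutamatergic class, and AgRP-Gq;POMC-Gi replicate 2 is lowest for Tacr1 in the GABAergic class.

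By transmitter class, again none of the 3 genes tested was called, and Tac2 was below the filter in both classes. Tacr3 in glutamatergic neurons had 8.53, 9.61, 12.2 and 12.5 CPM, with no overlap between groups. The log2 fold change was 0.51 (SE 0.152, 95% interval 0.16 to 0.86, edgeR unadjusted p = 0.00967, adjusted p = 0.864). These sums of 113, 135, 214 and 230 UMIs include cluster 154, with 3, 2, 33 and 30 UMIs from 3, 4, 25 and 21 nuclei. How far the uneven mix of clusters set this difference was not tested. In GABAergic neurons Tacr3 had 8.60, 11.6, 14.1 and 11.6 CPM and a log2 fold change of 0.41 (SE 0.196, adjusted p = 0.913). It was 0.21 with replicate 1 of either group left out, 0.64 with replicate 2 of the controls left out and 0.60 with that of AgRP-Gq;POMC-Gi left out. Tacr1 gave 0.19 in glutamatergic neurons (SE 0.114, adjusted p = 0.878) and -0.41 in GABAergic neurons (SE 0.240, adjusted p = 0.913), where its levels were 15.2, 13.8, 13.2 and 7.80 CPM. The low value was that of AgRP-Gq;POMC-Gi replicate 2. Leaving that library out gave a GABAergic log2 fold change of -0.02 for Tacr1, and leaving out AgRP-Gq;POMC-Gi replicate 1 gave -0.89 with an adjusted p of 0.0409. In that refit 69 of 16323 genes were called, and the spread came from the controls alone. The difference of the 2 classes for Tacr1, tested in a joint fit added after the data were seen, was 0.61 (SE 0.209, unadjusted p = 0.0144, adjusted p = 0.976). Tac1 gave 0.12 in glutamatergic and 0.20 in GABAergic neurons (adjusted p = 0.899 and 0.922). With a library left out in turn these lay between 0.048 and 0.19 and between 0.083 and 0.30, and the glutamatergic Tacr1 value between 0.11 and 0.28. The background in these fits was 0.00607% of 16469 genes called and 5.59% at an unadjusted p under 0.05 for glutamatergic neurons, and 0.00613% of 16323 genes and 5.07% for GABAergic neurons.

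**Figure D5:**
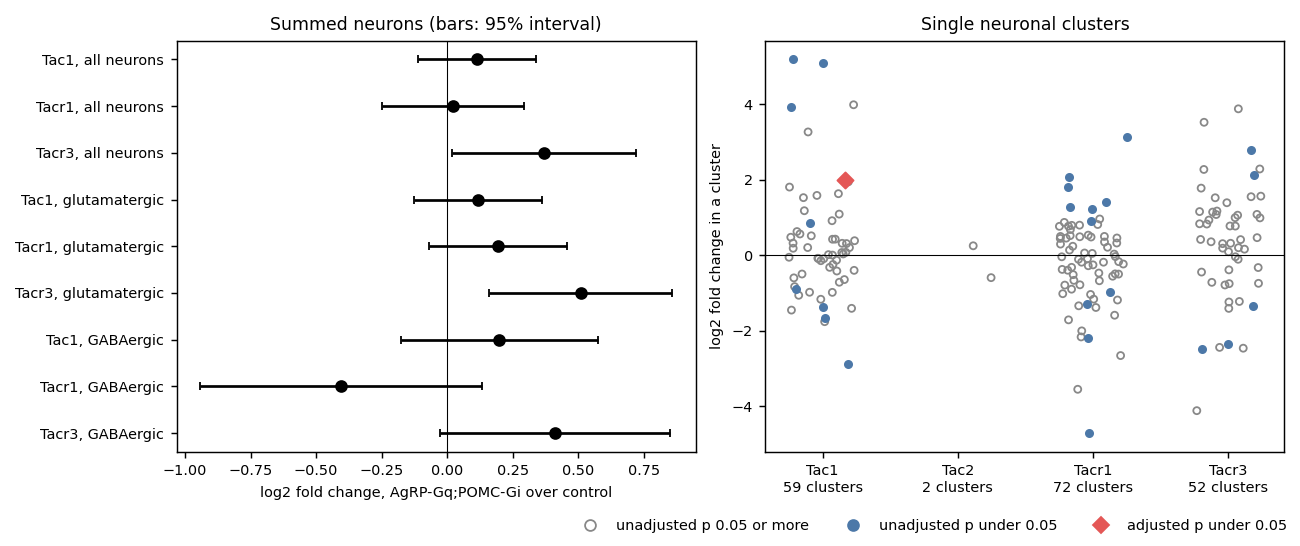
Log2 fold changes of AgRP-Gq;POMC-Gi over control; left, summed neurons with their 95% intervals, right, each tested neuronal cluster as a point. The intervals of Tacr3 in all neurons and in glutamatergic neurons lie above 0 before adjustment, and 1 of the 185 pairs of gene and cluster, Tac1 in cluster 122, has an adjusted p under 0.05.

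Within clusters, 120 of the 134 had at least 5 nuclei in every library, and 185 pairs of a tachykinin gene and a cluster passed the filter of a UMI in 5% of nuclei: 59 for Tac1, 2 for Tac2, 72 for Tacr1 and 52 for Tacr3. Tac1 was higher in AgRP-Gq;POMC-Gi in 33 of its 59 clusters, Tacr1 in 33 of 72 and Tacr3 in 34 of 52, whatever the p. Of the 101 higher pairs of all 4 genes, 21 passed the filter only through AgRP-Gq;POMC-Gi. Of the 84 lower pairs, 15 passed only through the controls. The clusters share their libraries, and the share of directions over all pairs of gene and cluster is not given here. These directions are therefore not read as a result. In 25 pairs the unadjusted p was under 0.05 (13.5%), against 4.51% of all 1396490 pairs of gene and cluster. These were 14 higher in AgRP-Gq;POMC-Gi (7.57%, against 2.38% of all pairs) and 11 lower (5.95%, against 2.13%). The balance depended on the scaling, with 11 higher and 14 lower without TMM factors and 10 and 9 with a replicate block. In 7 of the 25 pairs the group with the lower value had a UMI in under 5% of its own nuclei (36 of all 185 pairs), so that they passed the filter only through the other group. These 7 were Tac1 in clusters 88, 119 and 125, Tacr1 in 147 and 168 and Tacr3 in 84 and 130, and they give no usable fold change. In 4 more, Tac1 in cluster 174, Tacr1 in 33 and 153 and Tacr3 in 67, the controls were between 5% and 5.97%, at the edge of the filter. The counts are therefore given as a description, and nothing is read from them about the members. DESeq2 gave 4 such pairs of the 185, against 0.390% of all. After adjustment within each cluster 1 of the 185 was called, against 0.0387% of all pairs.

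The called pair was Tac1 in cluster 122 (Zfp804b/Lncenc1), a glutamatergic cluster of 75 nuclei. Its levels were 56.1, 11.4, 112 and 177 CPM, from 13, 2, 32 and 30 UMIs, and the groups did not overlap. The log2 fold change was 2.00 (SE 0.415, edgeR adjusted p = 0.00311, and 0.0102 when adjusted over all pairs of gene and cluster, an adjustment added after the data were seen). The UMIs came from 5 of 20, 2 of 16, 5 of 26 and 6 of 13 nuclei, and 1 nucleus of AgRP-Gq;POMC-Gi replicate 1 held 14 of its 32. The call was lost with DESeq2 (adjusted p = 1.00), with the filterByExpr gene filter (0.320), without control replicate 2 (log2 fold change 1.38, adjusted p = 0.991) and without AgRP-Gq;POMC-Gi replicate 2 (1.73, adjusted p = 0.188). Without control replicate 1 the log2 fold change was 3.67 (adjusted p = 0.00324). Cluster 122 was not above background for Tac1 by the rule used here, since control replicate 2 was below its oligodendrocytes.

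In cluster 67 (Foxp2/Il1rapl2) the receptor genes had unadjusted p under 0.05 in opposite directions. Tacr1 stood at 26.1, 33.6, 7.20 and 3.24 CPM, a log2 fold change of -2.20 (SE 0.645, adjusted p = 0.986), and Tacr3 at 5.79, 4.21, 21.6 and 48.6 CPM, a log2 fold change of 2.79 (SE 0.677, adjusted p = 0.986). Neither gene overlapped between groups, and no library had more than 16 UMIs of either. The Tacr3 value had an adjusted p of 0.0404 with no gene filter and 0.00849 without AgRP-Gq;POMC-Gi replicate 1, a refit with 1 library in that group. Its control UMIs were 4, in 4 of 67 nuclei, so that without the other group the gene was close to the filter. Tac1 in cluster 174 (Prdm6/Grp) had 0, 7.03, 40.2 and 111 CPM, from 0, 1, 4 and 20 UMIs, and was not called (adjusted p = 0.154). With 1 control UMI no fold change is given.

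Among the clusters named above for their levels, 7 more pairs had an unadjusted p under 0.05 and none was called. Tacr1 in the Gcg cluster 109 had a log2 fold change of -0.98 (SE 0.409, adjusted p = 0.862), with the 2 control values above the other 2, and of -0.37 with AgRP-Gq;POMC-Gi replicate 2 left out and -1.60 with replicate 1 left out. Tac1 was also at lower values in clusters 114 (-0.89), 155 (-1.37) and 76 (-1.65), and Tacr1 in cluster 79 (-1.28). Single libraries moved the Tac1 values, to -0.45 in cluster 114 without control replicate 2, to -0.84 in cluster 155 when AgRP-Gq;POMC-Gi replicate 2 was left out, and in cluster 76 to -0.95 with AgRP-Gq;POMC-Gi replicate 1 left out and to -3.22 with replicate 2 left out. Tacr3 in the Tac1-rich cluster 130 was at 0, 18.6, 33.1 and 48.0 CPM, from 0, 2, 6 and 4 UMIs in 4 of 66 nuclei. Tacr1 in cluster 168 was listed at 6, 0, 0 and 0 UMIs. The other pairs were higher for Tacr1 in clusters 33, 50, 51, 62, 112, 147 and 153 and for Tac1 in clusters 68, 88 and 125, and lower for Tac1 in cluster 119 and for Tacr3 in clusters 77, 84 and 127. Tac1 had no control UMI in clusters 88 (7 UMIs in all) and 125 (14).

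The 10 immediate early genes that the study used as signs of activation were compared between groups in neurons with a UMI of each gene. Nuclei with a UMI need not express the gene, since 2.78%, 0.178%, 0.196% and 0.0951% of oligodendrocytes also had one for Tac1, Tac2, Tacr1 and Tacr3. How far free RNA entered these sets was not tested, and for Tac1 the level in oligodendrocytes was closest to that in neurons. None of the immediate early genes tested was called, in 1096 neurons with Tac1, 94 with Tac2, 1423 with Tacr1 or 796 with Tacr3. Of those tested, 4 of 6 were higher in AgRP-Gq;POMC-Gi in neurons with Tac1, 6 of 7 with Tac2, 6 of 7 with Tacr1 and 3 of 6 with Tacr3. Their median log2 fold changes were 0.03, 1.13, 0.26 and 0.05, against 0.0006, 0.007, 0.001 and -0.004 over all genes tested. The 94 neurons with Tac2 were 21, 15, 15 and 43 per library, so the value of 1.13 rests on few nuclei and is not read as a result. Whether each immediate early gene reached the filter in both groups was not tested. Only in neurons with Tacr1, the largest of these sets, did any of them have an unadjusted p under 0.05. Whether this is particular to neurons with Tacr1 was not tested. Gem, a small GTPase gene, had 5.66, 4.45, 8.67 and 14.9 CPM (log2 fold change 1.27, SE 0.312, adjusted p = 0.865), and 1700016P03Rik, a noncoding transcript, had 22.7, 13.8, 27.6 and 47.4 CPM (1.09, SE 0.252, adjusted p = 0.865). The groups did not overlap for these 2 genes, with the controls lower, and AgRP-Gq;POMC-Gi replicate 2 was the highest. With AgRP-Gq;POMC-Gi replicate 1 left out both were called (adjusted p = 0.000275 for Gem, and lower for 1700016P03Rik), and 1700016P03Rik was also called without control replicate 1 (0.0447) or AgRP-Gq;POMC-Gi replicate 2 (0.0124). These refits leave 1 library in a group, so the spread came from the other group alone, and they called 77, 6 and 778 of the 12655 genes, against 2 with all libraries. In these fits 0%, 0.0165%, 0.0158% and 0.0241% of all genes were called for Tac1, Tac2, Tacr1 and Tacr3 neurons, and 6.71%, 4.2%, 5.29% and 4.81% had an unadjusted p under 0.05. Of the 10 immediate early genes, 6, 7, 7 and 6 passed the filter, and 0, 0, 2 and 0 of them had an unadjusted p under 0.05.

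Of 18 further pathway genes (Tac4, Tacr2 and genes that process the peptides, degrade them or act behind the receptors), 16 were tested in neurons and none was called, with 11 at higher and 5 at lower values in AgRP-Gq;POMC-Gi and a median log2 fold change of 0.09, against 0.00 over all genes tested. The largest differences were those of Pcsk1 (0.39, SE 0.199, adjusted p = 0.817) and Pcsk2 (0.20, SE 0.0845, adjusted p = 0.817), the prohormone convertase genes, and of Gna11 (-0.22, SE 0.141, adjusted p = 0.818) and Plcb1 (0.21, SE 0.0832, adjusted p = 0.817), a G protein and a phospholipase C gene of the Gq pathway. Plcb1 was the only one of the 16 with an unadjusted p under 0.05. Tac4 and Tacr2 had a UMI in fewer than 1% of neurons and were not tested.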

How the data were processed

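Nuclei of the 4 libraries were sorted, sequenced on the 10x 3′ platform and counted by the authors with Cell Ranger 7.0.0 against GRCm38 (mm10), and the deposited matrices hold UMI counts per gene and nucleus, without normalization. Per the study's methods, nuclei with at least 800 UMIs, 500 genes and at most 10% mitochondrial UMIs were kept and doublets removed. Whether intronic reads were counted, and the annotation release, is not given in the sources used here. The deposited annotation supplied the quality flag, cell types and clusters, so doublets were not called again. The joined matrix of the 4 libraries was not used, as it repeats the matrices of each.

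UMIs of passing nuclei were summed per library and set, and CPM computed from all UMIs of that set (Python 3.11.15, numpy 2.4.6, scipy 1.17.1, pandas 2.3.3, matplotlib 3.10.9). Groups were compared with edgeR 4.0.16 in R 4.3.3 (quasi-likelihood F-test, TMM factors, Benjamini-Hochberg adjustment over all genes of a fit, threshold 0.05), in genes with a UMI in 1% of nuclei (neurons, transmitter classes) or 5% (clusters, nuclei with a UMI of a gene). DESeq2 1.42.0 was an alternative. The edgeR procedure was tested on simulated data for summed neurons and the glutamatergic and GABAergic classes only. Fits of single clusters and of nuclei with a UMI of a gene were not simulated. P-values and intervals of fold changes measure the spread between these libraries only.

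The genes, lists and tests were chosen with earlier results of these data known. Named were the 4 genes, the 5 highest clusters of each, the clusters the study named, clusters with an unadjusted p under 0.05, the 5 most alike genes (1 for Tacr3, and some marker genes of clusters, are not reported here), and, of 18 pathway genes, the 4 of largest change with Tac4 and Tacr2. Clusters 167 and 80 were named after their values were seen. Groups were not compared in other cell types, as none was above background. A cluster with under 20 UMIs of both transporter genes got no transmitter class. Sequences and positions came from the GENCODE annotation of GRCm38. Over all genes tested, the deviations of same-numbered libraries from their group means were nearly uncorrelated.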

Additional observations from a re-analysis of the deposited data

How the results depend on the processing

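With 1 library left out at a time, the count of Tac1, Tacr1 and Tacr3 called in glutamatergic or GABAergic neurons (0) ranged from 0 to 1, the pathway genes called in neurons (0) from 0 to 3 (1 without AgRP-Gq;POMC-Gi replicate 1, 3 without AgRP-Gq;POMC-Gi replicate 2), the immediate early genes (0) from 0 to 2, and the pairs of gene and cluster (1) from 0 to 2. Clusters above background ranged from 1 to 2 for Tac2, and of the 5 leading clusters 3 to 5 remained for Tac2 and for Tacr1. The near-zero Tacr1 difference in neurons turned to -0.045 without TMM factors and -0.11 with clusters weighted equally, and it lay between -0.11 and 0.14 with a library left out. Genes called in neurons (1) numbered 3 and 15 with control replicate 1 or 2 left out and 29 and 1903 with AgRP-Gq;POMC-Gi replicate 1 or 2 left out, in glutamatergic neurons (1) 6, 35, 31 and 606, and in GABAergic neurons (1) 8, 3, 69 and 1044. With DESeq2 they numbered 12, 11 and 4, with the 5% filter 0 in each, and with no gene filter 13 in glutamatergic and 7 in GABAergic neurons. Without TMM factors the median of all genes in neurons moved to -0.06.

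Pairs of gene and cluster called numbered 0 with DESeq2, 2 with no gene filter and 0 with filterByExpr. At 10 times oligodendrocytes, 7 clusters were above background for Tac1, and on thinned shares 0 for Tac2, 17 for Tacr1 and 3 for Tacr3. Of the 5 leading Tac2 clusters, 3 remained by mean log-normalized value and 2 by thinned share, and of those of Tacr3, 3 by thinned share. The ratio of neurons to oligodendrocytes for Tacr1 was 33.7 on thinned shares. A 10-fold transmitter rule left 25 GABAergic and 33 mixed clusters. Without thinning the difference in share of neurons was -0.766 percentage points for Tac1 and -1.06 for Tacr1, the latter reversed. The causes were not tested. A fit with a library left out has 1 library in that group, which is assumed to vary like the other group. Of the other values under the alternatives, 98 summary values and 296 values of single genes or clusters kept their direction and side of the threshold or stayed within the tolerance set for them.

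Over all genes tested, the deviations of same-numbered libraries were nearly uncorrelated (0.0490 in neurons, -0.0336 in glutamatergic and 0.0710 in GABAergic neurons). Such a correlation cannot exclude that some genes go with the replicate number. In sex-linked genes, replicate 2 differed from replicate 1 in the same direction in both groups. Xist was lower in it, and Ddx3y, Uty, Kdm5d and Eif2s3y were higher. With a replicate block 71 genes were called in neurons, 3 in glutamatergic and 11 in GABAergic neurons, none of them Tac1, Tacr1 or Tacr3, and 1 pair of gene and cluster.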
